A study of Mus musculus with 9 samples.

Results

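The mitochondrial ribosome (mitoribosome) translates the few proteins that are encoded in mitochondrial DNA, all of them subunits of the respiratory chain or of ATP synthase. Its ribosomal RNAs are made inside the organelle, whereas its proteins are encoded by nuclear *Mrps* genes (small subunit, which reads the messenger RNA) and *Mrpl* genes (large subunit, which joins amino acids), translated in the cytosol and imported. Some of these proteins have a counterpart in the bacterial ribosome and others are found in mitochondria alone.

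The genes described here were chosen by name: every gene of the count matrix whose symbol was Mrpl or Mrps followed by a number and at most 1 letter, kept where at least 10 counts were present in at least 3 of the 9 libraries. Of 55471 genes, 78 had such a name, 77 of these reached the count rule and all 77 were tested, 29 named Mrps and 48 named Mrpl. The remaining gene, *Mrpl53* (chr6:83109040-83109939, plus strand), had 0 counts in all 9 libraries, which allows a level of up to 0.0673 to 0.106 CPM (counts set to a common library total) for counting error alone. In the annotation, 88.0% of its exonic bases also belonged to the read-through gene *Gm42688* on the same strand, and the counting tool leaves out reads that fall on more than 1 gene. *Mrps18a* and *Mrps30* carry small-subunit names but are large-subunit proteins by structure, and *Mrps36* is now known as a subunit of the oxoglutarate dehydrogenase complex.

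RNA was sequenced after ribosomal RNA depletion from bone marrow-derived dendritic cells (DCs), phagocytes grown from wild-type C57BL/6 mouse bone marrow in the growth factor GM-CSF. The female mice were 8 to 20 weeks old. In all, 3 conditions were compared, each with 3 libraries: DCs left unstimulated, DCs activated for 6 h with lipopolysaccharide (LPS, a component of the bacterial outer membrane), and DCs treated for 6 h with the antiviral cytokine interferon-β (IFN-β). The labels do not say whether the replicates A, B and C came from separate mice or cultures, so each p-value measures the spread between these samples, which may be technical, and GM-CSF cultures are mixtures in which fewer cells of a type and less RNA per cell cannot be told apart. The study used these conditions to compare cells with contrasting energy metabolism.

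Libraries held 33425803 to 43735199 counts, of which the 77 genes took 30692 to 60439. A single gene had 121 to 1917 counts in a library, with a median of 541. DC markers summed to 4818 to 5689 CPM in unstimulated, 6293 to 7065 CPM in LPS-activated and 5375 to 5621 CPM in IFN-β-treated DCs, and lymphocyte markers to at most 0.279 CPM, with the erythroid marker *Hbb-bs* at 0 throughout. Macrophage markers, 4 of 4 of which were tested, summed to 1374 to 1677, 1629 to 2052 and 1909 to 2190 CPM in the same order, granulocyte markers to 9.05 to 19.5, 12.1 to 22.5 and 8.82 to 15.6 CPM, and the 2 cell cycle markers to 185 to 236, 149 to 176 and 132 to 156 CPM. The sums of DC markers after LPS, of macrophage markers after IFN-β and of cell cycle markers after both stimuli lay outside the unstimulated range, and their part in the results below was not tested.

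The 77 genes together made up a smaller part of the RNA after either stimulus. Of all counts they took 0.157%, 0.167% and 0.172% in the unstimulated libraries, 0.0850%, 0.0970% and 0.0928% after LPS, and 0.106%, 0.121% and 0.119% after IFN-β. The 3 groups did not overlap, with every LPS library lowest and every unstimulated library highest. The mean was 0.166% ± 0.00751 (SD, n = 3) in unstimulated DCs, and it was 1.81-fold lower after LPS and 1.44-fold lower after IFN-β. An exact permutation test (two-sided) gave p = 0.1 for each of the 3 pairs of groups, which is the smallest that 3 against 3 libraries allows. A share of raw counts falls when other genes rise, so the gene-by-gene results below are on the TMM scale, which sets libraries level on the bulk of genes. Scaling by library totals instead moved the median of all genes by −0.58 (log2) after LPS and −0.31 after IFN-β.

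**Figure D1:**
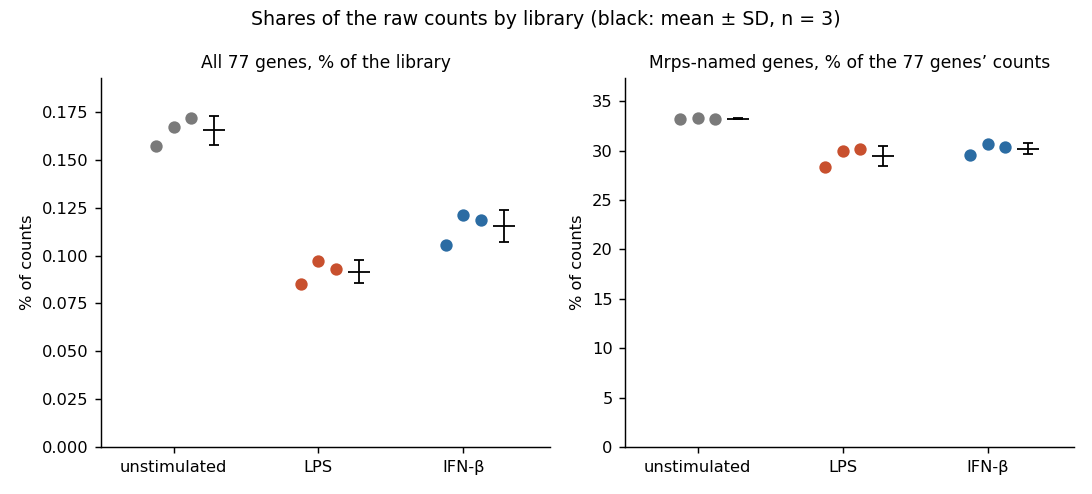
Share of raw counts in each of the 9 libraries (points) with the mean ± SD of each group (black, n = 3). The left panel gives the 77 genes as a percentage of the library, highest in unstimulated DCs (0.157% to 0.172%) and lowest after LPS (0.0850% to 0.0970%). The right panel gives the Mrps-named genes as a percentage of the counts of the 77 genes, from 33.2% to 33.3% in unstimulated DCs and at most 30.7% after a stimulus.

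After LPS, 50 of the 77 genes fell, 9 rose and 18 were not called (edgeR quasi-likelihood test, Benjamini-Hochberg adjusted over all 16260 genes tested, called at adjusted p below 0.05). Across all genes LPS lowered 35.4% and raised 32.8%, against 64.9% and 11.7% of the mitoribosomal genes. The median log2 fold change of the 77 was −0.33, against −0.04 over all genes, and single genes ranged from −1.49 (*Mrpl42*) to 1.18 (*Mrpl13*). Scaling by library totals kept all 50 falls and called 70 members lower (median −0.91), but it turned 7 of the 9 rises negative (3 of them called lower), so that *Mrpl13* and *Mrpl27* alone were still called higher. Because this scaling moves values down after LPS, keeping the falls is no check on them. Scaling by the members' own summed counts, which centres them by construction, gave 30 lower and 21 higher members (median −0.05).

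After IFN-β, 46 of the 77 genes fell, 7 rose and 24 were not called by the same test. Across all genes IFN-β lowered 23.3% and raised 23.6%, against 59.7% and 9.1% of the mitoribosomal genes. Their median log2 fold change was −0.31, against −0.02 over all genes, and the range ran from −1.02 (*Mrpl12*) to 1.02 (*Mrpl39*). With library totals 65 members were called lower and 4 higher (median −0.62), and with the members' summed counts 22 were lower and 14 higher (median −0.10). The comparison uses the same unstimulated libraries as the one with LPS, so the values are set side by side here and no correlation between them is given.

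**Figure D2:**
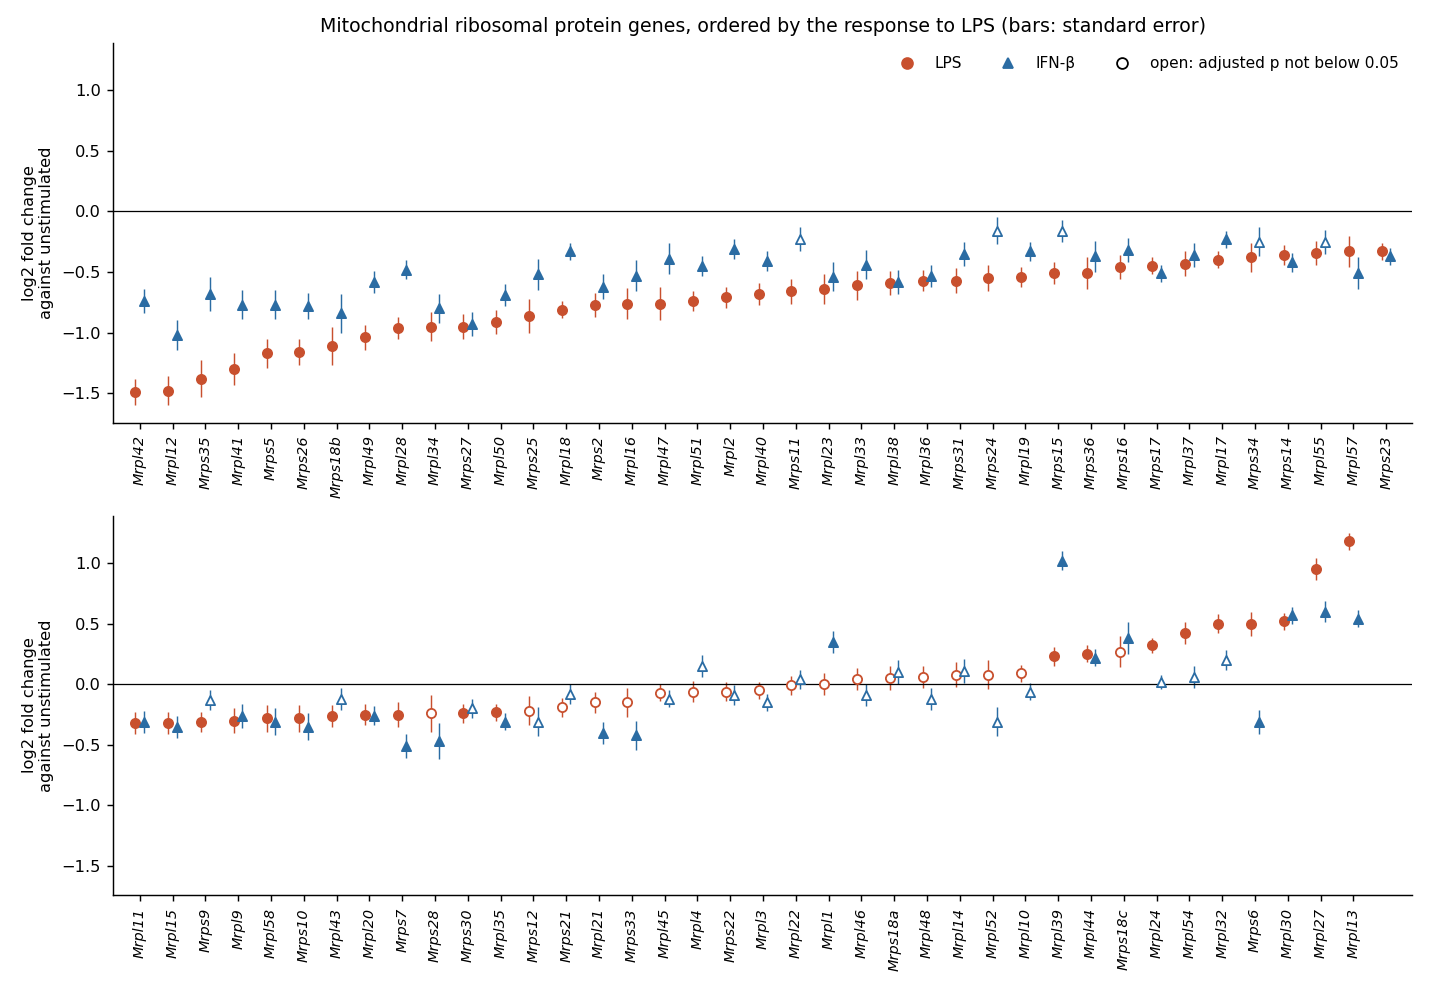
Log2 fold change against unstimulated DCs (vertical axis, bars are the standard error) for the 77 genes ordered by their response to LPS, with LPS as circles and IFN-β as triangles, on the TMM scale. Open symbols did not pass adjusted p below 0.05. Values after LPS run from −1.49 for Mrpl42 to 1.18 for Mrpl13, and the 7 LPS rises below that of Mrpl27 turn negative when libraries are scaled by their totals.

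The deepest fall after LPS was that of *Mrpl42* (chr10:95480805-95501940, minus strand), a large-subunit protein found in mitochondria alone. Its level was 24.1, 24.8 and 24.4 CPM in the unstimulated libraries A, B and C, 7.78, 9.53 and 8.73 CPM after LPS and 12.5, 15.9 and 15.6 CPM after IFN-β. The 3 groups were separate, with IFN-β between the other two. The log2 fold change was −1.49 ± 0.11 (SE, adjusted p = 5.11e-07) after LPS and −0.74 ± 0.10 (adjusted p = 0.00023) after IFN-β. The direct comparison put IFN-β above LPS by 0.75 ± 0.11 (adjusted p = 0.000204).

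*Mrpl12* (chr11:120484613-120489065, plus strand) encodes the counterpart of bacterial L7/L12, the flexible stalk protein that brings translation factors to the ribosome. It had 30.0, 30.8 and 32.3 CPM in unstimulated DCs, 11.5, 10.6 and 11.2 CPM after LPS and 12.2, 16.9 and 17.1 CPM after IFN-β. No stimulated library reached the unstimulated range. It fell by 1.48 ± 0.12 on the log2 scale after LPS (2.80-fold, adjusted p = 1.21e-06) and by 1.02 ± 0.12 after IFN-β (2.02-fold, adjusted p = 6.35e-05), the largest fall among the 77 genes in that comparison. On the opposite strand, 13.1% of its exonic bases were shared with *Gm16755*. *Mrpl10*, the protein on which the stalk is anchored, was not called, with 21.4 to 23.1 CPM in unstimulated, 22.8 to 24.5 CPM in LPS-activated and 20.6 to 22.9 CPM in IFN-β-treated DCs, ranges that overlap. With library-size scaling it was called lower after both stimuli (−0.50 and −0.36). It was singled out for its place beside *Mrpl12* after its values were seen.

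The next falls under LPS were those of *Mrps35* and *Mrpl41*, both found in mitochondria alone. *Mrps35* (chr6:147042764-147073991, plus strand) had 14.0, 15.4 and 14.8 CPM in unstimulated DCs, 4.64, 5.19 and 7.10 CPM after LPS and 7.94, 10.2 and 9.42 CPM after IFN-β. *Mrpl41* had 13.5, 14.4 and 12.2 CPM, then 5.38, 5.27 and 5.68 CPM, and then 6.35, 8.90 and 8.42 CPM in the same order. In both genes the 3 groups did not overlap. The log2 fold changes after LPS were −1.38 ± 0.15 (adjusted p = 1.14e-05) and −1.30 ± 0.13 (adjusted p = 5.84e-06), and the corresponding values after IFN-β were −0.68 ± 0.14 and −0.77 ± 0.12, also called.

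*Mrps5* (−1.17), *Mrps26* (−1.16), *Mrps18b* (−1.11) and *Mrpl49* (−1.04) completed the 8 largest falls after LPS, with adjusted p between 3.47e-06 and 9.98e-05. *Mrps5* is the counterpart of a bacterial protein at the messenger entry site. Each of these 4 genes was also lower after IFN-β, by 0.77, 0.78, 0.84 and 0.58 on the log2 scale. IFN-β had *Mrps27*, an RNA-binding pentatricopeptide repeat protein, and *Mrpl34* among its 4 deepest falls. *Mrps27* went from 11.9 to 14.3 CPM in unstimulated DCs to 6.26 to 6.82 CPM after LPS and 6.37 to 6.93 CPM after IFN-β. Its changes of −0.95 ± 0.10 and −0.93 ± 0.10 were both called, and the direct comparison of the stimuli did not separate them (difference 0.03 ± 0.10, adjusted p = 0.849). *Mrpl34* fell by 0.95 after LPS and by 0.80 after IFN-β.

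*Mrpl13* (chr15:55534094-55557748, minus strand), the counterpart of a core bacterial protein that binds early in assembly, went the opposite way. It had 19.2, 19.1 and 19.0 CPM in unstimulated DCs, 45.9, 42.8 and 41.0 CPM after LPS and 29.9, 25.9 and 27.6 CPM after IFN-β. The groups were separate, with LPS highest. It rose 2.27-fold after LPS (log2 1.18 ± 0.07, adjusted p = 1.68e-07) and 1.46-fold after IFN-β (log2 0.54 ± 0.07, adjusted p = 0.000181). With library-size scaling these values were 0.60 and 0.23, still called.

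*Mrpl27* (chr11:94653767-94660089, plus strand), whose bacterial counterpart lies beside the peptidyl transferase centre where the peptide bond forms, rose as well. Its levels were 17.6, 15.4 and 14.6 CPM in unstimulated DCs, 33.2, 31.2 and 27.5 CPM after LPS and 25.01, 23.0 and 24.1 CPM after IFN-β. All stimulated libraries lay above all unstimulated ones. The log2 fold change was 0.95 ± 0.09 after LPS (adjusted p = 5.46e-06) and 0.60 ± 0.09 after IFN-β (adjusted p = 0.000437), and 0.37 and 0.30 with library-size scaling, both still called. *Mrpl30* reached 0.52 and 0.57 after LPS and IFN-β, and *Mrpl44*, which has the fold of an RNase III enzyme, 0.25 and 0.22. Library-size scaling turned *Mrpl30* to −0.06 after LPS and *Mrpl44* to −0.33 after LPS and −0.08 after IFN-β. Both calls of *Mrpl44* were lost with upper-quartile factors (adjusted p = 0.08189 and 0.1273, edgeR) or without the filter on low counts, and the IFN-β call also without the IFN-β library B or C or any 1 of the unstimulated libraries.

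*Mrpl39* (chr16:84717576-84735742, minus strand), a mitochondria-only protein that resembles a threonyl-tRNA synthetase, had the largest rise after IFN-β. It had 21.1, 23.5 and 24.8 CPM in unstimulated DCs, 29.3, 26.5 and 25.4 CPM after LPS and 44.9, 45.9 and 49.9 CPM after IFN-β. The IFN-β libraries stood well above both other groups, whereas the LPS libraries lay just above the unstimulated ones. IFN-β raised it 2.03-fold (log2 1.02 ± 0.08, adjusted p = 6.98e-06) and LPS 1.17-fold (log2 0.23 ± 0.08, adjusted p = 0.0332). The LPS call was lost on leaving out any of the unstimulated libraries A or B or the LPS libraries A or B. It was also lost with upper-quartile factors, without the filter on low counts and in the fit of the compared groups alone. With library-size scaling the LPS value was −0.36 (called lower), whereas the IFN-β value was 0.71.

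*Mrps6* (chr16:92058270-92112227, plus strand), the counterpart of bacterial S6, was the only member called in opposite directions by the stimuli. It had 5.80, 6.56 and 5.64 CPM in unstimulated DCs, 9.09, 8.30 and 8.17 CPM after LPS and 4.68, 4.89 and 4.97 CPM after IFN-β. The groups did not overlap. The log2 fold change was 0.50 ± 0.10 after LPS (adjusted p = 0.000826) and −0.31 ± 0.10 after IFN-β (adjusted p = 0.0256), and the direct comparison put IFN-β below LPS by 0.81 ± 0.10 (adjusted p = 6.25e-05). With library-size scaling the LPS value was −0.08. The IFN-β call was lost without the IFN-β library A or B or the unstimulated library B, without the filter on low counts and with the members' summed counts as library size. Of its exonic bases 19.9% also belonged to *Slc5a3*, a myo-inositol transporter gene on the same strand, whose own values were 0.17 after LPS (not called) and −0.51 after IFN-β (called).

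**Figure D3:**
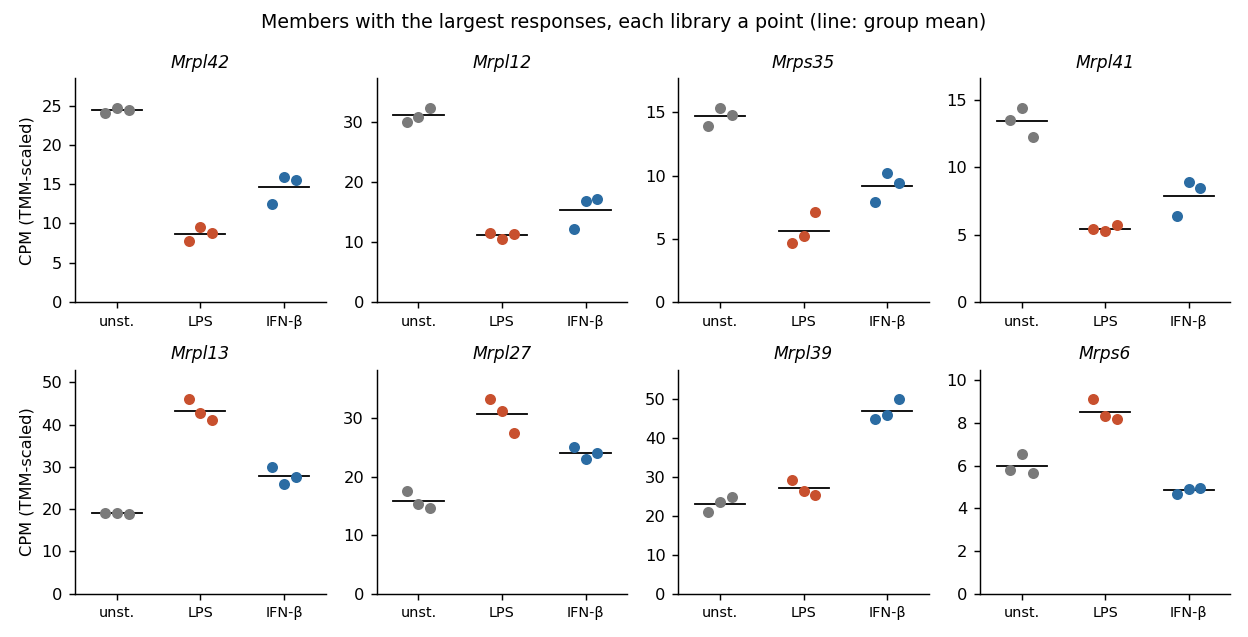
TMM-scaled level in CPM (vertical axis from 0) of 8 genes in each library, with the group mean as a line. Mrpl42, Mrpl12, Mrps35 and Mrpl41 are lowest after LPS, Mrpl13 and Mrpl27 are highest after LPS, and Mrpl39 is highest after IFN-β. Mrps6 is higher after LPS (8.17 to 9.09 CPM) and lower after IFN-β (4.68 to 4.97 CPM) than in unstimulated DCs (5.64 to 6.56 CPM), though its LPS value turns to −0.08 (log2) with library-size scaling.

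Small-subunit genes took a smaller share of the 77 genes' own counts after either stimulus, a measure that does not depend on how libraries are scaled. The Mrps-named genes held 33.2%, 33.3% and 33.2% of these counts in unstimulated DCs, 28.3%, 30.0% and 30.2% after LPS, and 29.6%, 30.7% and 30.4% after IFN-β. All stimulated libraries lay below all unstimulated ones. The mean share fell by 3.77 percentage points after LPS and fell by 3.05 after IFN-β (two-sided exact permutation p = 0.1 in both cases, again the smallest possible). The difference between the stimuli, 0.717 percentage points, had an exact permutation p = 0.4. Counts of long transcripts weigh more in such a share, and with counts per kilobase of exons the means were 31.8% ± 0.151, 29.3% ± 0.833 and 30.4% ± 0.421 (SD, n = 3).

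Gene by gene, 21 of the 29 Mrps-named genes fell after LPS and 1 rose (median log2 −0.38), against 29 and 8 of the 48 Mrpl-named genes (median −0.31). After IFN-β, 18 fell and 1 rose among the former (median −0.35), and 28 fell and 6 rose among the latter (median −0.31). Within the small subunit, genes of the 9 proteins found in mitochondria alone had 7 falls and no rise under each stimulus. Their medians were −0.57 and −0.42, and all 9 had a log2 fold change below 0 in both comparisons. Genes of the 17 small-subunit proteins with a bacterial counterpart had 12 falls and 1 rise after LPS (*Mrps6*) and 10 falls and 1 rise after IFN-β (*Mrps18c*). In the large subunit, those with a counterpart had 17 falls and 5 rises of 30 after LPS and 18 falls and 4 rises after IFN-β. Genes of the mitochondria-only proteins there had 13 falls and 3 rises of 20 after LPS and 10 falls and 2 rises after IFN-β. The difference between subunits in these counts was not tested, because genes of a shared complex are not independent replicates.

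Members that sit close together in the ribosome did not all move alike. These sites were chosen after the values were seen and are given without a test. They follow the bacterial counterparts, except for *Mrpl45*, which is found in mitochondria alone. Around the exit of the tunnel through which the new chain leaves, *Mrpl47* and *Mrpl23* fell after LPS by 0.76 and 0.64 on the log2 scale, *Mrpl24* rose by 0.32 (−0.26 with library-size scaling), and *Mrpl22* and *Mrpl45* stood at −0.01 and −0.07 (not called; −0.59 and −0.65, called lower, with library-size scaling). At the stalks, *Mrpl12* stood at −1.48 and *Mrpl11* at −0.32 after LPS, both called, while *Mrpl10* stood at 0.09 and *Mrpl1* at 0.00, neither called (−0.50 and −0.58 with library-size scaling, both called lower). *Mrpl1* rose after IFN-β by 0.35 ± 0.09 (adjusted p = 0.00804), or 0.04 (not called) with library-size scaling. *Mrpl32*, which the m-AAA protease trims after import, was at 0.50 ± 0.08 after LPS (adjusted p = 0.00017), a value that turned to −0.09 with library-size scaling.

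The 3 *Mrps18* genes are paralogs of bacterial S18, of which *Mrps18b* and *Mrps18c* belong to the small subunit and *Mrps18a* to the large. *Mrps18b* (chr17:35910379-35916389, minus strand) had 14.2, 15.9 and 16.9 CPM in unstimulated DCs, 5.91, 8.13 and 7.65 CPM after LPS and 6.75, 10.0 and 9.42 CPM after IFN-β. All stimulated libraries lay below the unstimulated range. It fell by 1.11 ± 0.16 on the log2 scale after LPS (adjusted p = 9.98e-05) and fell by 0.84 ± 0.16 after IFN-β (adjusted p = 0.00131). The difference between the stimuli was 0.27 ± 0.16 (adjusted p = 0.201, or 0.03035 with the replicate letter as a block).

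*Mrps18c* (chr5:100798627-100804471, plus strand) had 8.13, 7.07 and 6.43 CPM in unstimulated DCs, 8.46, 7.66 and 10.0 CPM after LPS and 8.69, 9.002 and 10.4 CPM after IFN-β. The LPS range overlapped the unstimulated one and the IFN-β range did not. Its log2 fold change was 0.27 ± 0.13 after LPS (adjusted p = 0.0825, −0.30 with library-size scaling) and 0.38 ± 0.13 after IFN-β (adjusted p = 0.0325). The IFN-β call was lost with upper-quartile or library-size scaling and without the unstimulated library B or C or the IFN-β library B or C. *Mrps18a* (chr17:46110986-46128910, plus strand) had 18.8 to 19.7 CPM in unstimulated, 18.4 to 22.9 CPM in LPS-activated and 18.3 to 22.0 CPM in IFN-β-treated DCs. These ranges overlapped, and its log2 fold changes of 0.05 ± 0.10 and 0.10 ± 0.10 were not called and turned to −0.53 and −0.20 with library-size scaling.

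**Figure D4:**
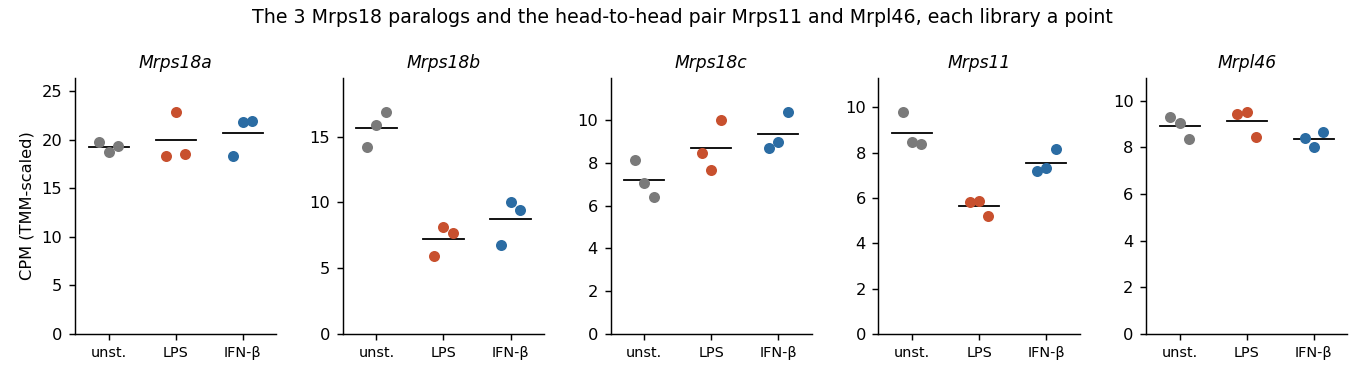
TMM-scaled level in CPM (vertical axis from 0) in each library, with the group mean as a line, for the 3 Mrps18 paralogs and for Mrps11 and Mrpl46, whose start sites lie head to head. Mrps18b fell from 14.2 to 16.9 CPM to at most 10.0 CPM after either stimulus, whereas the ranges of Mrps18a overlap. Mrps11 fell after LPS to 5.19 to 5.86 CPM, and Mrpl46 stayed within 8.02 to 9.53 CPM in all 9 libraries on this scale.

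Promoters are shown for the members with the largest fall after LPS (*Mrpl42*), the largest fall and rise after IFN-β (*Mrpl12* and *Mrpl39*) and for the *Mrps18* paralogs, so that start-site sequences of members with different responses can be read side by side. They are RefSeq promoters (GRCm38.p6) of 300 bases, from 250 before to 50 after the start site, written in the direction of transcription. Capitals mark the cores of 3 motifs searched on both strands: CGCANGCG, bound by nuclear respiratory factor NRF1, CCGGAAG, bound by ETS factors such as GABPA, and AAGATGGC, bound by YY1. The table holds a promoter for 69 of the 78 genes.
Mrpl42, chr10:95501900-95502199, minus strand: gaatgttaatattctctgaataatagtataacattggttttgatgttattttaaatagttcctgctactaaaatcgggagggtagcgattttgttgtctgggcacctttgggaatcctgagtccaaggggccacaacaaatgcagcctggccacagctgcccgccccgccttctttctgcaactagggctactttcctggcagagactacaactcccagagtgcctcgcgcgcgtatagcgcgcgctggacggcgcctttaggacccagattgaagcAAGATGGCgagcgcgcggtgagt
Mrpl12, chr11:120484387-120484686, plus strand: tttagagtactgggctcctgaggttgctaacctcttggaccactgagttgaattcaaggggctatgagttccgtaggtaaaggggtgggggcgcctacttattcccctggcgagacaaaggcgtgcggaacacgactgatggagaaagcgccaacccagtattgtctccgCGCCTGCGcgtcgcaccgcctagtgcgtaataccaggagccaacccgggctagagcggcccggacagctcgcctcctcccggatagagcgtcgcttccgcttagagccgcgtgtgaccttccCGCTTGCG
Mrpl39, chr16:84735195-84735494, minus strand: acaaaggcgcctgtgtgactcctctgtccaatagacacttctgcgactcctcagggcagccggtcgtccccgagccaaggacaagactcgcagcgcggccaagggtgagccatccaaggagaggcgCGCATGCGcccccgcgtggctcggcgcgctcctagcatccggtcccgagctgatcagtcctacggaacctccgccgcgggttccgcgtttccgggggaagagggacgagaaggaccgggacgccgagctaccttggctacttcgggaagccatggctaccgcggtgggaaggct
Mrps18a, chr17:46110754-46111053, plus strand: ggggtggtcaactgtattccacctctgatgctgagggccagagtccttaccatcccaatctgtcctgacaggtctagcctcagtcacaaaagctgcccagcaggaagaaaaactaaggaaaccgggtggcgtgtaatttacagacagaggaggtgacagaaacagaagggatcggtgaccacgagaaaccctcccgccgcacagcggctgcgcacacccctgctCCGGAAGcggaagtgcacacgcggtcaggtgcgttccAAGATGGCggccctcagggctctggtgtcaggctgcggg
Mrps18b, chr17:35916391-35916690, minus strand: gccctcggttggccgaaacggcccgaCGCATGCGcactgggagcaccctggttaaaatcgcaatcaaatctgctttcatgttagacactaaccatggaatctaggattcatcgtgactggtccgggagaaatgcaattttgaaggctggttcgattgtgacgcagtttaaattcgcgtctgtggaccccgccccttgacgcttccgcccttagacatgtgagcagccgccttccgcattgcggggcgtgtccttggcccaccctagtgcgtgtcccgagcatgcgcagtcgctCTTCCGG
Mrps18c, chr5:100798509-100798808, plus strand: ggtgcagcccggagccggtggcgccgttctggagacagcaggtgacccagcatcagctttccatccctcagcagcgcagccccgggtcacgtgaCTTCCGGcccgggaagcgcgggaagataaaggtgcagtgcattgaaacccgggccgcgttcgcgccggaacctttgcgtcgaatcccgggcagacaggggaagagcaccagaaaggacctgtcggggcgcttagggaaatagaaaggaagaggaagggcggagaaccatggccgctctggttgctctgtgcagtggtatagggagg

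The *Mrpl42* window held a YY1 core that begins 28 bases after the start site, and the *Mrpl12* window held NRF1 cores at 80 bases before and 43 bases after it. The *Mrpl39* window held an NRF1 core 124 bases before the start. An ETS core was found in each of the *Mrps18* windows, together with a YY1 core in *Mrps18a* and an NRF1 core in *Mrps18b*. Among the 69 promoters, 20 held the NRF1 core (29.0%, against 9.22% of 27025 genes), 26 the ETS core (37.7%, against 9.93%) and 12 the YY1 core (17.4%, against 3.19%). At least 1 core was present in 44, or 63.8%, against 19.5% of all genes. These matches describe letters in a window and not binding.

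Among members tested, 24 of 43 with at least 1 of these cores fell after LPS (median log2 −0.26), against 21 of 25 with none (median −0.51). After IFN-β the corresponding counts were 22 of 43 (median −0.31) and 19 of 25 (median −0.37). The members with an NRF1 core numbered 20, of which 11 fell and 4 rose after LPS and 9 fell and 3 rose after IFN-β. The split by motif was described and not tested.

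*Mrps11* and *Mrpl46* are both members and lie head to head on chromosome 7, with RefSeq start sites 42 bases apart on opposite strands. The window of *Mrps11* is shown because it contains the start sites of both genes. The window overlaps that of *Mrpl46* by 141 bases, and capitals mark a YY1 core read on the other strand.
Mrps11, chr7:78782881-78783180, plus strand: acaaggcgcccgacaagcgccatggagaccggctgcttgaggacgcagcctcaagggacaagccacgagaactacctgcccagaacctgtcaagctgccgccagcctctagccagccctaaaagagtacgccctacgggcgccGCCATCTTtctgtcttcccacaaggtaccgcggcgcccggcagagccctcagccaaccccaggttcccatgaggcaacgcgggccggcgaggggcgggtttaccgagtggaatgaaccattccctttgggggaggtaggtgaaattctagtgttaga
*Mrps11*, a platform protein of the small subunit, had 9.81, 8.47 and 8.37 CPM in unstimulated DCs, 5.84, 5.86 and 5.19 CPM after LPS and 7.19, 7.33 and 8.15 CPM after IFN-β. *Mrpl46* had 9.30, 9.03 and 8.37 CPM, then 9.41, 9.53 and 8.45 CPM, and then 8.39, 8.02 and 8.65 CPM in the same order. The groups of *Mrps11* were separate and those of *Mrpl46* overlapped. After IFN-β *Mrps11* was at −0.23 (adjusted p = 0.0817, edgeR), not called. Exons of the 2 genes overlap on opposite strands, at 8.0% of the exonic bases of *Mrps11* and 12.2% of those of *Mrpl46*. The counting strand is not given in the sources used here, so the values of both genes are uncertain to that extent. *Mrps11* fell by 0.66 ± 0.10 on the log2 scale after LPS (adjusted p = 0.000199), whereas *Mrpl46* was at 0.04 ± 0.09 (adjusted p = 0.7195), a sign that turned with library-size (−0.54) and upper-quartile (−0.06) scaling. This pair was chosen after its values were seen, and a difference between the fold changes of 2 genes was not tested.

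In all, 27 members have a neighbour that starts within 1000 bases on the opposite strand, *Mrps11* and *Mrpl46* among them. These pairs were likewise examined after the values were seen. Of the 16 that fell after LPS, 9 had a partner that fell and 2 a partner that rose, and of the 6 that rose, 3 had a partner that rose. Across all genes 35.4% fell and 32.8% rose after LPS, and no reading is made of these few pairs. *Mrpl30* (0.52) faced *Mitd1*, which acts in the last step of cell division and stood at 2.12 ± 0.11, and *Mrpl32* (0.50) faced the proteasome subunit gene *Psma2* at 1.02 ± 0.08. *Mrps18b* (−1.11) faced *Ppp1r10*, a phosphatase regulator, at 0.74 ± 0.06 (adjusted p = 1.62e-06), and *Mrpl49* (−1.04) faced *Fau*, which encodes a cytosolic ribosomal protein, at 0.09 ± 0.08 (adjusted p = 0.356). *Mrpl51* (−0.74) and *Mrpl2* (−0.71) faced genes with deeper falls, the condensin subunit *Ncapd2* at −2.98 ± 0.11 and the kinesin light chain *Klc4* at −2.89 ± 0.09.

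Compared gene by gene, 42 members were lower after both stimuli and 5 were higher after both (*Mrpl13*, *Mrpl27*, *Mrpl30*, *Mrpl39* and *Mrpl44*). With library-size scaling only *Mrpl13* and *Mrpl27* were still called higher after both. Both comparisons use the same unstimulated libraries, and the matching numbers over all genes were not counted. In 32 of the 42 the fall was the larger after LPS. Changes were also wider after LPS over all genes, with log2 quartiles of −0.69 and 0.60 against −0.35 and 0.36 after IFN-β. The count of 32 is therefore not read as particular to these members. The remaining called members were *Mrps6*, opposite in direction, 8 that fell after LPS alone, 3 that rose after LPS alone (*Mrpl24*, *Mrpl32* and *Mrpl54*), 3 that fell after IFN-β alone (*Mrpl21*, *Mrps28* and *Mrps33*) and 2 that rose after IFN-β alone (*Mrpl1* and *Mrps18c*). A call after LPS and not after IFN-β, or the reverse, does not show a difference, which the direct comparison tests, and 13 members were called in neither. With the replicate letter as a block, *Mrpl32* was also called higher after IFN-β (adjusted p = 0.04606, edgeR), and *Mrpl52*, *Mrps12*, *Mrps30*, *Mrpl55* and *Mrps34* were called lower.

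In that direct comparison of IFN-β with LPS, 18 members were higher after IFN-β, 8 were lower and 51 were not called (edgeR, as above). The shares were 23.4% and 10.4%, against 25.8% and 23.3% of all genes, and the median log2 difference was 0.07 against 0.02. Among the 42 members lower after both stimuli, 13 were higher after IFN-β than after LPS and 1, *Mrps7*, was lower, a call that several alternatives lost. The members with the largest excess after IFN-β were *Mrpl39* (0.79), *Mrpl42* (0.75), *Mrps35* (0.70), *Mrpl41* (0.53), *Mrpl18* (0.48), *Mrpl28* (0.47), *Mrpl12* (0.47) and *Mrpl49* (0.46). *Mrpl18* had 28.6 to 32.4 CPM in unstimulated DCs, 17.0 to 17.7 CPM after LPS and 23.1 to 24.9 CPM after IFN-β, 3 separate ranges. *Mrpl28* had 19.0 to 20.4, 9.27 to 10.8 and 12.9 to 14.5 CPM in the same order. With library-size scaling 51 members were higher after IFN-β and 2 lower.

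Members lower after IFN-β than after LPS were led by *Mrps6* (−0.81) and *Mrpl13* (−0.64), followed by *Mrpl52* (−0.39), *Mrpl54* (−0.37), *Mrpl27* (−0.35), *Mrpl32* (−0.30), *Mrpl24* (−0.30) and *Mrps7* (−0.27). *Mrpl52* had 28.0 to 30.3 CPM after LPS and 18.1, 23.2 and 26.5 CPM after IFN-β, so the IFN-β libraries were spread out below the LPS range. Its call was lost without the LPS library B or C. *Mrps7*, the counterpart of a primary RNA-binding protein of the bacterial small subunit, had 18.2 to 21.4 CPM after LPS and 14.3 to 18.1 CPM after IFN-β. Its adjusted p = 0.0465 (edgeR) lay close to the threshold, and library-size scaling turned its value to 0.01. The call was also lost with upper-quartile factors, with either other filter on low counts and in the fit of the compared groups alone. It was lost as well without the IFN-β library A or C, the LPS library B or C or any 1 of the unstimulated libraries.

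Levels of different members can be compared only per length, here as CPM per kilobase of the exons of basic transcripts. In unstimulated DCs the 77 genes ranged from 2.38 to 56.9 with a median of 10.4. The highest were *Mrpl52* (56.9 ± 2.23, SD, n = 3), *Mrps21* (52.2 ± 1.421), *Mrpl42* (36.0 ± 0.479), *Mrpl33* (31.9 ± 3.69), *Mrpl20* (30.0 ± 1.45) and *Mrpl54* (29.5 ± 2.02). *Mrpl33*, *Mrpl20* and *Mrpl54* do not differ from each other beyond their spread. The lowest were *Mrpl47* (2.38 ± 0.253), *Mrpl1* (3.15 ± 0.272) and *Mrpl48* (3.25 ± 0.289), and the levels of *Mrpl1* and *Mrpl48* do not differ beyond their spread. The order depends on the transcripts counted, since with the exons of all transcripts *Mrpl42* came to 6.63 and *Mrpl33* to 2.08. After LPS *Mrpl42* was at 12.8 ± 1.28 and after IFN-β at 21.6 ± 2.78, whereas *Mrps21* was at 45.9 ± 1.57 and 49.2 ± 5.01.

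The annotation places exons of 32 members over exons of another gene, 7 on the same strand and 27 on the opposite one. Among the 45 members with no such overlap, 30 fell and 4 rose after LPS (median log2 −0.33), and 29 fell and 3 rose after IFN-β (median −0.35), shares close to those of all 77. For *Mrps25*, 69.8% of the exonic bases lie opposite *Nr2c2* and the counting strand is not given in the sources used here, so its values of −0.86 ± 0.14 and −0.52 ± 0.13 are uncertain. *Nr2c2* itself was at 0.07 and 0.10. *Mrps34* shares 37.0% of its exonic bases with *Nme3* on the same strand and 63.4% with *Mapk8ip3* on the opposite one, and its values of −0.38 (called) and −0.25 (not called) are uncertain for the same reason. Among the remaining genes of the name rule, *Mrps36*, no ribosomal subunit, was at −0.51 ± 0.13 after LPS and −0.37 ± 0.13 after IFN-β, both called. Its IFN-β call was lost without the IFN-β library A (−0.25) or B or any 1 of the unstimulated libraries.

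Mitoribosome subunits with other names were measured beside the members. *Ptcd3*, an RNA-binding small-subunit protein, had 21.8, 25.1 and 27.4 CPM in unstimulated DCs, 14.4, 13.9 and 14.6 CPM after LPS and 17.1, 18.9 and 18.6 CPM after IFN-β, with separate groups. Its log2 fold change was −0.79 ± 0.09 and −0.44 ± 0.09. *Gadd45gip1*, of the large subunit, was at −0.70 ± 0.14 and −0.69 ± 0.14, all 4 values called. The values of *Gadd45gip1* are uncertain, since the counting strand is not given in the sources used here. Of the other 3, all in the small subunit, *Dap3* (−0.22) and *Chchd1* (−0.32) were called lower after LPS and *Aurkaip1* (−0.15) was not, and none was called after IFN-β (−0.15, −0.18 and −0.02). In sum, 4 of 5 fell after LPS and 2 of 5 after IFN-β, and none rose. Of all genes, 35.4% fell and 32.8% rose after LPS, and 23.3% fell and 23.6% rose after IFN-β. With 5 genes, no shift of the list is read from these counts.

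Genes of proteins that build or serve the mitoribosome were also called lower more often than higher. Of 28 assembly factors, 20 fell (71.4%) and 3 rose (10.7%) after LPS (median log2 −0.51). After IFN-β 17 fell (60.7%) and none rose (median −0.37). Of all genes, 35.4% fell and 32.8% rose after LPS, and 23.3% fell and 23.6% rose after IFN-β. *Rpusd3*, which modifies mitochondrial RNA, was at −2.12 ± 0.29 and −1.51 ± 0.26 and *Mrm3*, a methyltransferase of the large ribosomal RNA, at −1.73 ± 0.25 and −1.23 ± 0.24, though both were low at 1.33 and 3.30 CPM in unstimulated DCs and 65.2% of the exonic bases of *Rpusd3* lie opposite *Gm44280*. *Nsun4* (0.61 ± 0.09), also a ribosomal RNA methyltransferase, and *Mterf3* (0.26 ± 0.10) had the largest rises after LPS. Of 14 translation factors, 9 fell (64.3%) and 1 rose (7.1%) after LPS and 8 fell (57.1%) after IFN-β. Their largest falls after LPS were those of *Guf1* (−1.13 ± 0.10) and *Taco1*, a translational activator of *mt-Co1* (−0.76 ± 0.10). After IFN-β they were those of the recycling factor *Mrrf* (−0.73 ± 0.14) and the elongation factor *Tufm* (−0.62 ± 0.10). The single rise was that of *Gfm2* after LPS (0.27 ± 0.06). The rises of *Gfm2* and *Mterf3* are smaller than the shift of −0.58 that library-size scaling brings after LPS, so their direction depends on the scaling.

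Of 11 genes that act on mitochondrial DNA and its transcripts, 4 rose and 5 fell after LPS (36.4% and 45.5%, against 32.8% and 35.4% of all genes), and 2 rose and 6 fell after IFN-β (18.2% and 54.5%, against 23.6% and 23.3%). *Pnpt1*, an RNA-degrading enzyme of mitochondria, had the largest rise (1.83 ± 0.11 and 1.46 ± 0.11), followed by *Slirp* (0.90 ± 0.08 and 0.56 ± 0.08). Of the exonic bases of *Slirp* 97.8% lie opposite *Alkbh1* and *Snw1*, so its values are uncertain. *Lrpprc*, the partner with which the SLIRP protein stabilizes mitochondrial messenger RNAs, fell (−1.17 ± 0.08 and −0.71 ± 0.08). The helicase *Twnk*, whose exons overlap those of *Mrpl43* on the opposite strand, was at −1.43 ± 0.11 after LPS and the mitochondrial RNA polymerase *Polrmt* at −0.91 ± 0.12 after IFN-β, both called. With library-size scaling the median of all genes moves by −0.58 after LPS, a shift that the rise of *Pnpt1* there exceeds.

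Of 13 messenger RNAs encoded by mitochondrial DNA, which the mitoribosome translates, 10 passed the filter. After LPS 6 of the 10 rose and none fell (median log2 0.45), and after IFN-β 2 of the 10 rose and none fell (median 0.21), on the TMM scale. Over all genes, 32.8% rose and 35.4% fell after LPS, and 23.6% rose and 23.3% fell after IFN-β. The share that rose after IFN-β was thus not above that of all genes, and no rise of the list is read from that count. The largest called rises after LPS were *mt-Nd6* (0.59 ± 0.15) and *mt-Co1* (0.58 ± 0.14), and those after IFN-β were *mt-Nd6* (0.66 ± 0.15) and *mt-Atp6* at 1.0, the last from a level of 0.195 CPM. The shift of −0.58 from library-size scaling after LPS is larger than the list's median, so the direction of these mitochondrial transcripts depends on the scaling. That scaling moves values down after LPS and so cannot check the 50 falls among the nuclear mitoribosomal genes. Of these, 30 were kept with the members' summed counts as library size and 43 with DESeq2.

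Of the 9 factors on record as acting on mitochondrial genes, 8 were tested. *Ppargc1b* (PGC-1β, a coactivator of such genes) was at −3.57 ± 0.13 after LPS and −0.34 ± 0.11 after IFN-β, and *Myc* at −3.13 ± 0.17 and −0.63 ± 0.15. *Pprc1* was at −0.56 ± 0.14 after IFN-β. The ETS-family subunits *Gabpb1* and *Gabpa* were at 0.86 ± 0.07 and 0.45 ± 0.07 after LPS, and *Gabpb1* at 0.26 ± 0.07 after IFN-β. The value of *Gabpa* and the IFN-β value of *Gabpb1* are smaller than the shifts from library-size scaling (−0.58 after LPS, −0.31 after IFN-β). In all, 4 of the 8 fell and 2 rose after LPS, and 3 fell and 1 rose after IFN-β. The shares over all genes were 35.4% lower and 32.8% higher after LPS, and 23.3% and 23.6% after IFN-β. With 8 genes, no shift of the list as a whole is read from these counts. Their part in the levels of the mitoribosomal genes was not tested.

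**Figure D5:**
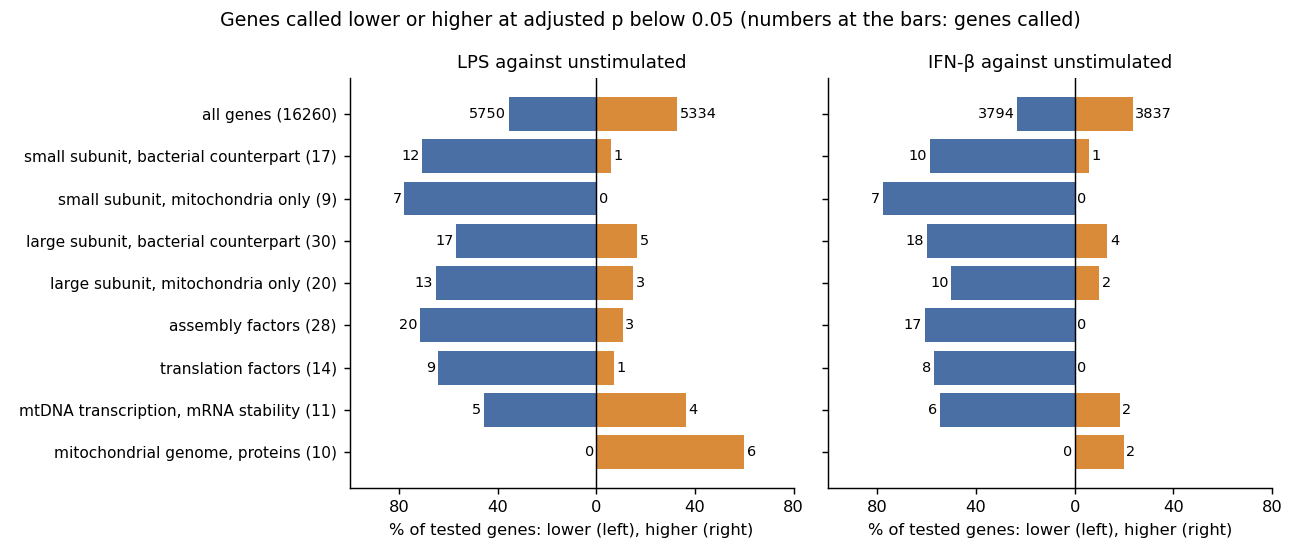
Percentage of the tested genes of each list (number tested in brackets) called lower (left of 0) or higher (right of 0) at adjusted p below 0.05, for LPS and for IFN-β against unstimulated DCs on the TMM scale, with the number of genes called at each bar. The 4 mitoribosomal classes and the assembly and translation factors have longer bars on the lower side than all genes (35.4% after LPS, 23.3% after IFN-β), and the mitochondrial-genome transcripts have none there, a direction that depends on the scaling.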

How the data were processed

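The deposited table holds raw counts per gene, which the authors made by trimming paired reads (Trim Galore 0.6.0), aligning them to mouse GRCm38 with STAR (2.7.8a in the submitters' processing notes) and counting with STAR's gene counts on GENCODE M20. Such counting leaves out reads that map to several places or fall on several genes. The counting strand is not given in the sources used here.

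All 9 libraries entered 1 fit with a term per condition (edgeR 4.0.16, R 4.3.3): TMM factors, filterByExpr, quasi-likelihood test and Benjamini-Hochberg adjustment over 16260 genes. TMM factors were 1.18 to 1.26 in unstimulated, 0.783 to 0.841 in LPS-activated and 0.977 to 1.02 in IFN-β-treated libraries. CPM are on the TMM scale. The fitting code was tested on simulated data. Replicates differed beyond sampling noise (chi-square per degree of freedom at least 12.3). The totals of 33425803 to 43735199 counts set the precision, and limits from 0 counts cover counting error only. Shares of raw counts were compared by exact permutation tests.

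Libraries with the same letter deviated together from their group means in each of 9 pairs (correlation across genes 0.12 to 0.47), a pairing that comes from the data and not from the labels, so a fit with the letter as a block was run as an alternative. Other alternatives were DESeq2 1.42.0, other scalings, filters and thresholds, the compared groups alone, and leaving out each library.

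The members and lists were chosen with earlier results of these data known. Named members are, per comparison, the 8 largest called rises and falls, the 6 highest and 3 lowest levels per length, the 5 subunits with other names, *Mrps36*, *Mrpl53*, *Mrpl12* and the *Mrps18* paralogs, and from each other list the 2 largest called rises and falls under each stimulus. Gene positions and overlaps are from GENCODE M21 (GRCm38), which held 55230 of the 55471 identifiers.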

Additional observations from a re-analysis of the deposited data

How the results depend on the processing

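Summary values (counts, medians and shares) were compared with the main result for each alternative. On leaving out each library in turn, 144 stayed within their limits. Under the other alternatives 103 stayed within them and 17 moved beyond them. Scaling by library totals gave 2 higher members and a median of −0.91 after LPS, 4 and −0.62 after IFN-β, and 53 members that differ between the stimuli (51 higher, 2 lower, median 0.34). Scaling by the members' own summed counts, which centres them by construction, gave 21 higher, 30 lower and a median of −0.05 after LPS, and 14, 22 and −0.10 after IFN-β. Upper-quartile factors gave a median of −0.42 after LPS, and an adjusted p below 0.01 left 35 calls after IFN-β (30 lower). Called members ranged from 52 to 59 after LPS, 41 to 54 after IFN-β and 21 to 28 between stimuli without a single library. With the replicate block, all main calls remained, with 9 higher and 51 lower members after LPS, 8 and 51 after IFN-β and 24 and 10 between the stimuli, and among the members named for each comparison by the rule it changed no call other than that of *Mrps18b* between the stimuli. DESeq2 kept 43 of the 50 LPS falls, all 9 rises, and 45 of 46 IFN-β falls.

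Signs turned with library totals after LPS for *Mrpl39* (−0.36), *Mrpl30* (−0.06), *Mrps6* (−0.08), *Mrpl32* (−0.09), *Mrpl54* (−0.16), *Mrpl24* (−0.26), *Mrpl44* (−0.33), *Mrps18a* (−0.53), *Mrps18c* (−0.30) and *Mrpl46* (−0.54), after IFN-β for *Mrpl44* (−0.08) and *Mrps18a* (−0.20), and between the stimuli for *Mrps7* (0.01) and *Mrpl46* (0.15). With upper-quartile factors *Mrps18a* (−0.04) and *Mrpl46* (−0.06) turned after LPS, and with the members' sum *Mrpl46* (0.13) after IFN-β and *Mrps18a* (−0.00) between stimuli. Without a single library, *Mrps18a* ran from −0.06 to 0.11 and *Mrpl46* from −0.01 to 0.09 after LPS, and *Mrps18a* from −0.01 to 0.16 between the stimuli. With library totals 3 of the 9 LPS rises were called lower, and that scaling moves the median of all genes by −0.58 after LPS. For the remaining changes the cause was not tested.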
